A study of Homo sapiens with 10 samples.

Results

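The immediate early AP-1, EGR and IER genes FOS, FOSB, FOSL1, FOSL2, JUN, JUNB, JUND, EGR1, IER2 and IER3 were examined in ARPE-19 cells, an established human retinal pigment epithelial (RPE) cell line, under control and high glucose (HG) conditions. They were chosen by name, as the rows of the deposited read-count table that carry one of these 10 gene symbols, and all 10 were found among its 22626 rows. The choice was made with earlier results of these data known. Control cells were kept for 48 h in medium with 5.5 mM glucose and 32 mM mannitol (n = 5), and high glucose cells for 48 h in medium with 37.5 mM glucose (n = 5). Mannitol, a sugar alcohol, adds dissolved molecules to the control medium without adding glucose. In that medium the concentrations of glucose and mannitol add up to that of glucose in the high glucose medium. The groups therefore differ in both compounds. Total counts ran from 33039260 to 45864176 in control libraries (median 41468270) and from 32448991 to 44400714 in high glucose libraries (median 39867119). Control libraries carry replicate numbers, while the high glucose libraries are called HG_1 to HG_5 after their columns, whose names match the labels only as to the group. Nothing in the labels says that the libraries came from separate cultures, so p-values measure the spread between these libraries, which may be technical.

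Immediate early genes are transcribed within minutes of a growth factor or stress signal, without new protein synthesis, and most of their transcripts are short-lived. FOS and JUN proteins pair through leucine zippers to form the transcription factor AP-1, and EGR1 is a zinc finger factor that binds GC-rich DNA. In the pigment epithelium, as in other epithelia, these factors take part in the response to serum, light and oxidants.

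The labels were checked with the glucose-induced genes TXNIP and ARRDC4. TXNIP was at 1.21, 1.23, 0.818, 0.817 and 0.809 CPM (the count relative to library size, scaled with TMM factors) in control replicates 1 to 5 and at 7.59, 9.07, 12.9, 8.63 and 5.38 in HG_1 to HG_5. ARRDC4 ran from 2.74 to 3.80 CPM in controls and from 4.52 to 6.21 CPM under high glucose, so the groups did not overlap for either gene.

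Before the results, 2 libraries need naming. HG_1 and control replicate 2 stand apart in GC content: relative to the mean of all libraries, log2 CPM climbed by 0.188 and 0.170 per 10 percentage points of GC in the longest coding transcript, while this slope was between -0.0916 and -0.00519 in the other 8 libraries. The immediate early genes are GC-rich, with a median of 58.1% against 48.5% over the rows tested with a value, and all 10 lie above that median. Values of the 10 genes, and counts for each list of related genes, are therefore also given without these 2 libraries, and after each library was corrected for GC and transcript length.

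With edgeR's quasi-likelihood test and Benjamini-Hochberg adjustment over 14936 rows, 7 of the 10 genes had an adjusted p under 0.05, against 15.4% of all rows tested. Lower in the high glucose group were 5, namely EGR1, FOSB, IER3, JUNB and FOSL2 (7.80% of all rows tested were lower), and higher were 2, JUND and JUN (7.62% of all rows). EGR1 and FOSB, 2 of the 10 genes, also had a fold change above 1.5. Both limits together were passed by 3.69% of all rows tested. The groups did not overlap in 5 genes, EGR1, FOSB, IER3, JUND and JUN, against 13.6% of all rows. The median log2 fold change of the 10 genes was -0.30, and that of all rows tested 0.0013. Without control replicate 2 and HG_1, FOS was not tested and 7 of the remaining 9 genes passed, against 27.1% of all rows in that fit. Of the 9 genes, 5 were lower (13.8% of all rows), 2 were higher (13.3%) and 2 passed both limits (4.22%). The groups did not overlap in 7 of the 9, against 30.7% of all rows with 4 libraries a group. After correction for GC and length, 5 were again lower (14.8% of all rows) and 2 higher (14.5%). In these bulk libraries, fewer cells with a transcript and less of it per cell cannot be told apart.

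**Figure D1:**
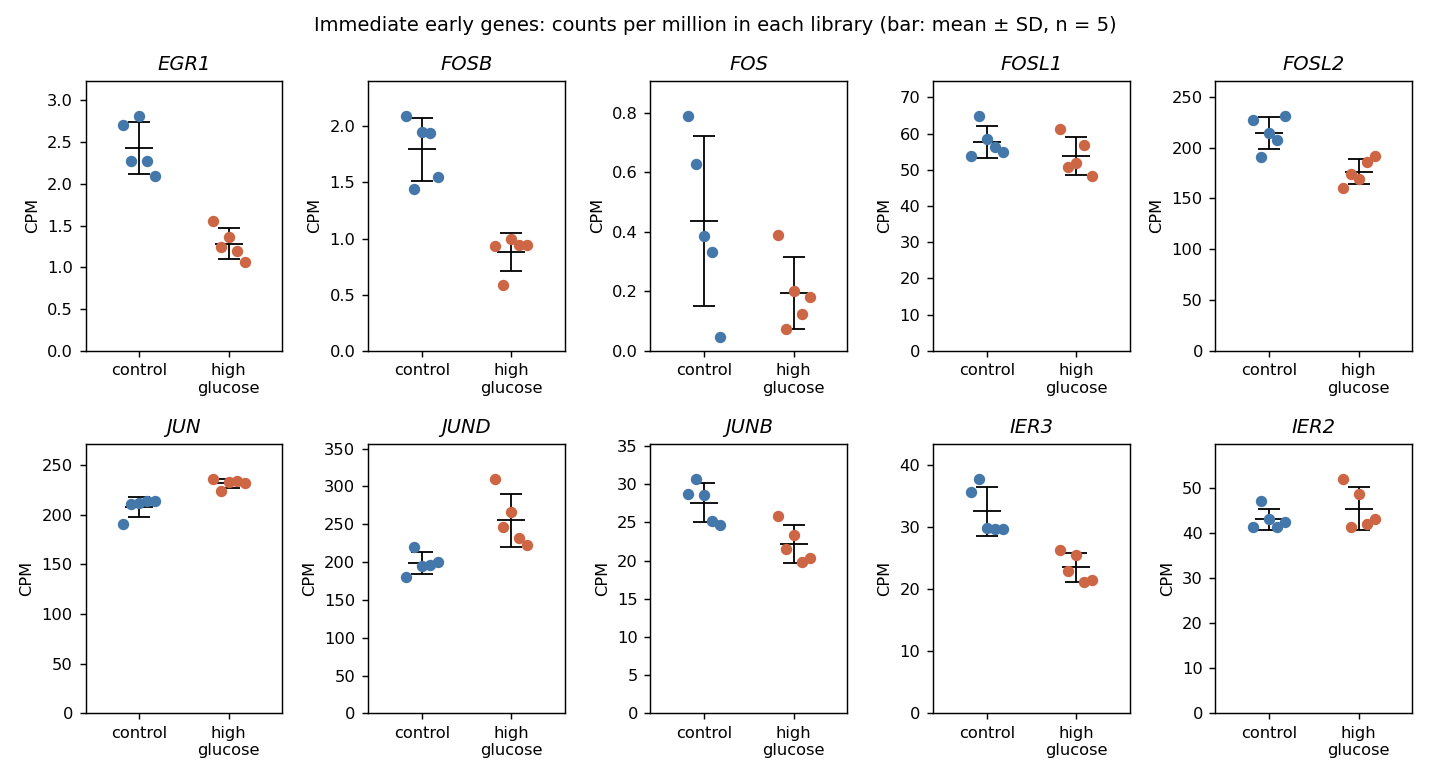
CPM (vertical axis, linear from 0) of each gene in the 5 control (blue) and 5 high glucose (orange) libraries, with mean ± SD as a black bar. Among the 5 genes without overlap, EGR1 and FOSB showed the widest gaps relative to their level, and FOS the widest spread within the control group relative to its mean.

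Per transcript length, 7 of the 10 genes lay above 10 FPKM and 3 below 1 FPKM in every library. In the control group the order by mean FPKM was JUND (94.7 ± 5.96), JUN (59.1 ± 3.03), FOSL1 (33.7 ± 1.90), FOSL2 (29.7 ± 2.48), IER3 (22.2 ± 2.38), JUNB (13.9 ± 1.13), IER2 (13.6 ± 0.554), EGR1 (0.711 ± 0.0942), FOSB (0.442 ± 0.0683) and FOS (0.223 ± 0.141; SD, n = 5 each). Among neighbours in this order, the values of FOSL1 and FOSL2, of JUNB and IER2, and of FOSB and FOS overlapped between libraries. In the high glucose group the order changed at 1 place, with IER2 (14.8 ± 1.41 FPKM) above JUNB (11.3 ± 1.05), and there the FPKM values of these 2 genes did not overlap. EGR1, FOSB and FOS were below 1 FPKM in every library of both groups, and on the scale of log2(FPKM + 1) their differences were -0.31, -0.25 and -0.17, since the added 1 shrinks those of low genes.

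**Figure D2:**
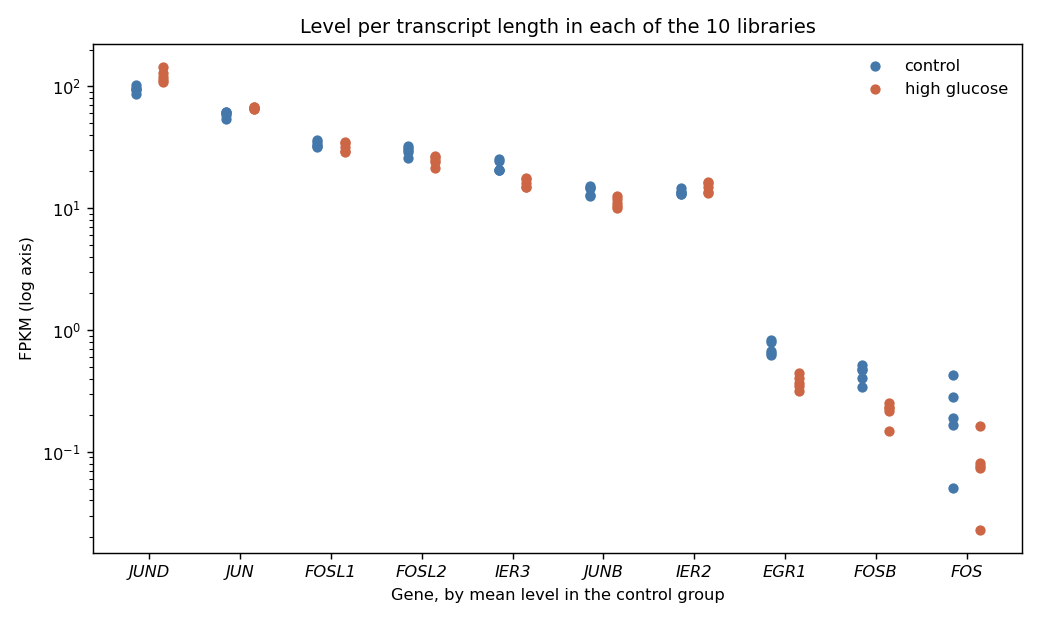
FPKM of each gene (log axis) in the 10 libraries, ordered by the mean in the control group. JUND and JUN lay highest and EGR1, FOSB and FOS lowest, all 3 below 1 FPKM.

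EGR1, the zinc finger factor of the group, spans positions 138465490 to 138469315 of chromosome 5, on the plus strand (GENCODE release 29 on GRCh38), with 2 exons. It had 89, 101, 117, 75 and 93 counts in control replicates 1 to 5 and 60, 51, 61, 39 and 35 counts in HG_1 to HG_5. Scaled to library size this gave 2.70, 2.27, 2.81, 2.27 and 2.09 CPM in controls and 1.56, 1.24, 1.36, 1.19 and 1.06 CPM under high glucose. Every high glucose library was below every control library, with HG_1 the highest of its group. EGR1 fell from 2.43 ± 0.312 to 1.28 ± 0.188 CPM (SD, n = 5 each), a log2 ratio of -0.92 with a standard error (SE) of 0.163 (edgeR adjusted p = 0.00357). Without control replicate 2 and HG_1 the log2 ratio was -1.02 (edgeR adjusted p = 0.00302), and after correction for GC and length -0.91 (edgeR adjusted p = 0.000852). Over all 22 alternatives that tested EGR1, the adjusted p ran from 3.55e-05 to 0.0118.

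FOSB, a FOS family partner of the JUN proteins, lies on the plus strand of chromosome 19 from 45467995 to 45475179. It had 69, 64, 81, 64 and 69 counts in control replicates 1 to 5 and 36, 24, 45, 31 and 31 in HG_1 to HG_5, or 2.09, 1.44, 1.95, 1.94 and 1.55 CPM against 0.935, 0.582, 1.00, 0.942 and 0.943 CPM. No high glucose library reached the lowest control library, and HG_2 lay below the other 4 of its group. FOSB fell by 1.02 on the log2 scale (SE 0.20, edgeR adjusted p = 0.00620). This was -0.90 without HG_2, -1.11 without control replicate 2 and HG_1, and -0.99 after correction for GC and length. ERCC1, a DNA repair gene, overlaps FOSB on the other strand and had 88.8 ± 8.84 CPM in controls and 84.0 ± 6.77 CPM under high glucose (log2 ratio -0.08, edgeR adjusted p = 0.558). Whether the authors' counting used the strand is not given in the sources used here, so reads of the overlap cannot be told apart.

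FOS, the founding member of the family, was near the limit of detection. Its counts were 26, 28, 16, 11 and 2 in control replicates 1 to 5 and 15, 3, 9, 4 and 6 in HG_1 to HG_5. The groups overlapped, and control replicate 5 was the lowest of all 10 libraries at 0.0449 CPM, under the 0.0676 CPM that 3 counts make there. Its log2 ratio of -1.15 had an SE of 0.63 and did not pass (edgeR adjusted p = 0.268). After correction for GC and length it was -1.18, and without control replicate 2 and HG_1 FOS did not pass the filter on low counts.

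In the RefSeq promoter table (build GRCh38.p14), 8 of the 10 genes were matched by symbol, all but FOSL1 and IER3. The 250 bases before the RefSeq start were searched on both strands for the CArG box (the site of serum response factor), the AP-1 site TGANTCA, the cAMP response element TGACGTCA, the EGR1 site GCGNGGGCG and the TATA box TATAAA. In the promoter of EGR1, 2 CArG boxes were found, a match held by 1.16% of all 35116 promoters, with 1 EGR1 site (8.41% of all promoters). A TATA box was found in FOS, FOSB and JUNB (10.7% of all promoters), and JUND held 1 cAMP response element (1.65%). The AP-1 site was found in 0 of the 8 windows (6.57% of all promoters), and no 2 matches overlapped. By the GENCODE models, the windows of FOSL2 and JUN lie wholly within the gene, and those of FOS and FOSB reach into it, so these windows do not show the sequence before every annotated start. EGR1 and FOSB passed both limits, on significance and on size of change, while JUND was the most abundant of the 10 genes by FPKM and had the largest rise. Shown 5′ to 3′, with the motif matches in capitals, are the promoters of EGR1, FOSB and JUND. They lie at chr5:138465229-138465478 (plus strand), chr19:45467746-45467994 (plus strand, 249 bases, up to the annotated start of the gene) and chr19:18281623-18281872 (minus strand), each outside the gene's annotated transcripts. A match describes the letters alone, and no binding was measured.
EGR1: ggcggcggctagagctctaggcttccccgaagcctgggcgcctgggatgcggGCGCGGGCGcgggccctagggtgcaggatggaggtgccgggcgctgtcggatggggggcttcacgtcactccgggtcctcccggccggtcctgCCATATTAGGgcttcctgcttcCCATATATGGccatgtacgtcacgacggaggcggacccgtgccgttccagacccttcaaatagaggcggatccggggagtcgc
FOSB: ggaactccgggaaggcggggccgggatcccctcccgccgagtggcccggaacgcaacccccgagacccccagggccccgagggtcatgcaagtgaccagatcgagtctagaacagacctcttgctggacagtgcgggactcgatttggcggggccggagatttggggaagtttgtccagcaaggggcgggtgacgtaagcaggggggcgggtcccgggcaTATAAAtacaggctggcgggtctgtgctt
JUND: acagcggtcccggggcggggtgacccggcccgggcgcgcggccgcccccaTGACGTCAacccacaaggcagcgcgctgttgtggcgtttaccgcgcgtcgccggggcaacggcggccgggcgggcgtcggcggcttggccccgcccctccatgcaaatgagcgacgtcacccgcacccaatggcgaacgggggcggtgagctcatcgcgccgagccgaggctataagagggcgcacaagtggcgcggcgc

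The other FOS family members, FOSL1 and FOSL2, lack the activation domain of FOS and were the abundant ones here. FOSL2 was at 226.6, 190.9, 214.2, 207.6 and 230.8 CPM in control replicates 1 to 5 and at 160.2, 174.0, 169.4, 185.8 and 191.5 CPM in HG_1 to HG_5. The groups touched at 1 point, where HG_5 lay just above control replicate 2. FOSL2 fell by 0.28 on the log2 scale (SE 0.0650, edgeR adjusted p = 0.0145), by 0.29 without control replicate 2 and HG_1, and by 0.23 after correction for GC and length. Tested with limma, FPKM values gave a difference of -0.26 in log2(FPKM + 1), which missed the threshold (limma adjusted p = 0.0520, the highest of 23 alternatives, the lowest being 0.000649), as it did on the scale of log2(FPKM + 0.1) (limma adjusted p = 0.0514). FOSL1 ran from 53.9 to 64.8 CPM in controls and from 48.3 to 61.2 CPM under high glucose, and did not pass (log2 ratio -0.10, edgeR adjusted p = 0.434). The log2 ratio of FOSL1 was -0.06 without control replicate 2, -0.15 without HG_1, -0.11 without both, and -0.11 after correction for GC and length. FOSL1 and FOSL2 together made up nearly all of the family's summed FPKM, with FOSL1 at 52.6 ± 3.43% in controls and 56.1 ± 3.62% under high glucose, and FOSL2 at 46.4 ± 3.35% and 43.4 ± 3.72%. These shares overlapped between the groups.

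Among the JUN family, JUND and JUN were higher in the high glucose group and JUNB was lower. JUND, an AP-1 subunit that many cells make without stimulation, was at 180.1, 220.5, 194.8, 195.6 and 199.6 CPM in control replicates 1 to 5 and at 309.9, 246.0, 266.7, 231.6 and 222.0 CPM in HG_1 to HG_5. The groups were separated by a narrow gap, between control replicate 2 and HG_5, and the highest library of each group was the one with the steep GC slope. JUND rose by 0.37 on the log2 scale (SE 0.0895, edgeR adjusted p = 0.0191). With control replicate 2 and HG_1 left out its log2 ratio was 0.33 (edgeR adjusted p = 0.00348), and after correction for GC and length 0.40 (edgeR adjusted p = 0.000690). It did not pass without control replicate 1 (edgeR adjusted p = 0.0514, the highest of 23 alternatives) or without HG_3 (edgeR adjusted p = 0.0507).

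JUN, which forms AP-1 with FOS, was at 190.6, 210.5, 212.2, 213.9 and 214.0 CPM in control replicates 1 to 5 and at 236.2, 224.2, 233.3, 234.0 and 232.3 CPM in HG_1 to HG_5. Control replicate 1 was below the rest of its group, and the groups did not overlap. JUN rose by 0.16 on the log2 scale (SE 0.0417, edgeR adjusted p = 0.0284), by 0.15 without control replicate 2 and HG_1, and by 0.19 after correction for GC and length. JUN did not pass without control replicate 3, HG_3, HG_4 or HG_5, with edgeR adjusted p of 0.0528, 0.0691, 0.0642 and 0.0601 in that order, and over all 23 alternatives the adjusted p began at 0.00267. Without HG_3, neither JUN nor JUND passed.

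JUNB, which can act as an inhibitor of JUN activity, was at 28.7, 30.7, 28.6, 25.2 and 24.7 CPM in control replicates 1 to 5 and at 25.8, 21.5, 23.4, 19.8 and 20.4 CPM in HG_1 to HG_5. HG_1 lay within the control range and the other 4 high glucose libraries below it. JUNB fell by 0.31 on the log2 scale (SE 0.0900, edgeR adjusted p = 0.0393), by 0.33 without control replicate 2 and HG_1 (edgeR adjusted p = 0.0119), and by 0.30 after correction for GC and length. In 7 of the 10 fits that left out a single library JUNB did not pass: edgeR adjusted p was 0.0888, 0.0701 and 0.0861 without control replicates 1, 2 and 3, and 0.0865, 0.0612, 0.0881 and 0.0896 without HG_2, HG_3, HG_4 and HG_5. Over all 23 alternatives the lowest adjusted p of JUNB was 0.00169. On the other strand HOOK2 overlaps JUNB (log2 ratio -0.07, edgeR adjusted p = 0.657), and its reads cannot be told apart from those of JUNB where they overlap.

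Within each library, the share of JUNB in the summed FPKM of the JUN family was 9.35, 8.55, 8.58, 7.60 and 7.38% in control replicates 1 to 5 and 5.71, 5.65, 5.75, 5.32 and 5.64% in HG_1 to HG_5. These shares did not overlap between the groups. JUND made up 56.4 ± 1.17% of the family in controls and 61.2 ± 2.63% under high glucose, with 58.4% in control replicate 2 and 58.3% in HG_5 at the point of overlap. JUN made up 35.3 ± 1.33% and 33.2 ± 2.73% (SD, n = 5 each), which overlapped. Shares within a library depend on each other, and no test was made of them.

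**Figure D3:**
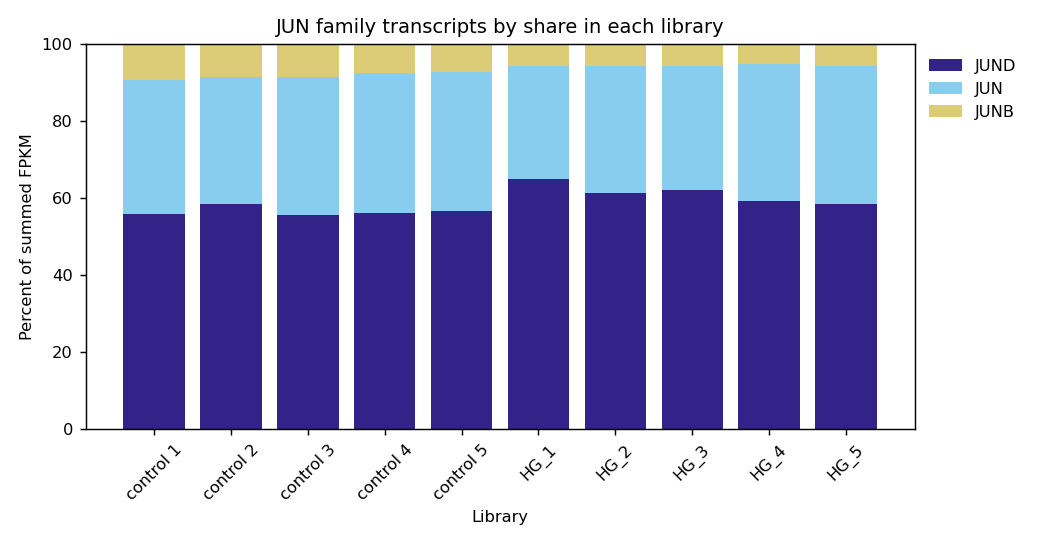
Share of JUND, JUN and JUNB in the summed FPKM of the JUN family (vertical axis, percent) in each library. JUNB took between 7.38 and 9.35% in the control libraries and between 5.32 and 5.75% in the high glucose libraries.

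The IER genes are induced together with FOS and encode no AP-1 subunit. IER3, linked to survival under stress, was at 35.6, 37.7, 29.8, 29.7 and 29.6 CPM in control replicates 1 to 5 and at 26.2, 22.9, 25.5, 21.2 and 21.5 CPM in HG_1 to HG_5. All high glucose libraries were below all control libraries, with control replicates 1 and 2 the highest. IER3 fell by 0.47 on the log2 scale (SE 0.0940, edgeR adjusted p = 0.00694), by 0.45 without control replicate 2 and HG_1, and by 0.50 after correction for GC and length. IER2, which encodes a nuclear protein, ran from 41.3 to 47.0 CPM in controls and from 41.3 to 52.0 CPM under high glucose. It did not pass (log2 ratio 0.08, SE 0.0739, edgeR adjusted p = 0.559), and the highest value of each group again came from control replicate 2 and HG_1. For IER2 the log2 ratio was 0.11 without control replicate 2, 0.03 without HG_1, 0.06 without both, and 0.11 after correction for GC and length. Annotated antisense genes overlap IER2 and IER3, as they do FOSL2, and have no row of their own in the table.

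**Figure D4:**
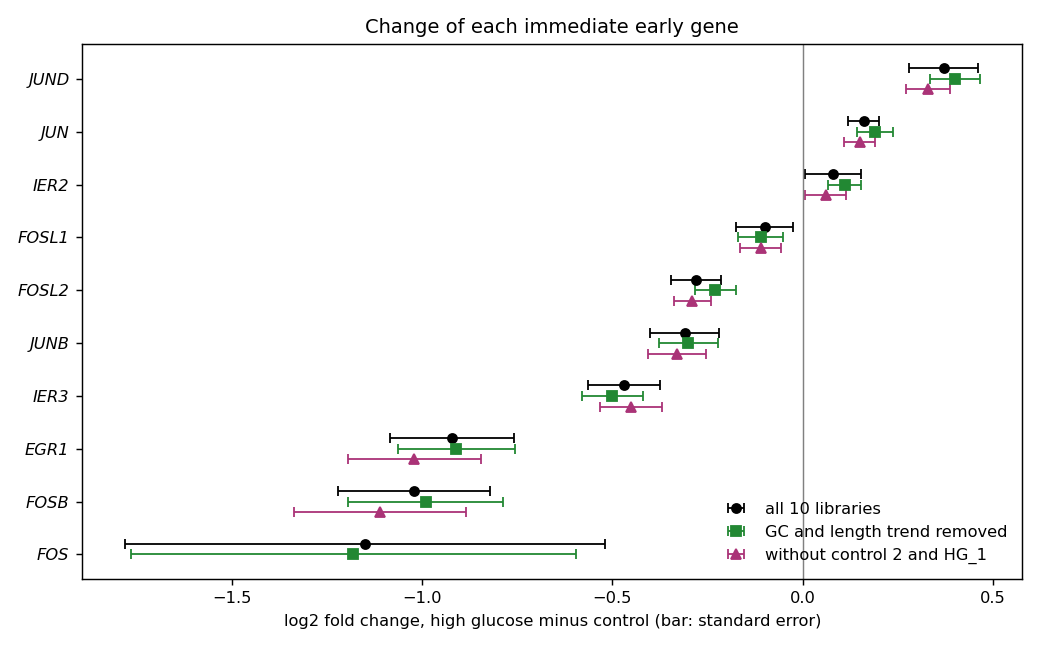
Log2 fold change of high glucose minus control (horizontal axis, bars are standard errors) for each gene with all 10 libraries, after correction for GC and length, and without control replicate 2 and HG_1. Direction was the same in all 3 fits for the genes they tested, and FOS did not pass the filter on low counts in the last one.

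After subtraction of the group means, the level of a gene in the 10 libraries can be set beside the GC slope of each library. Pearson's r was 0.923 for JUND, 0.897 for IER2, 0.819 for FOSL1, 0.790 for JUNB and 0.698 for IER3, and -0.827 for FOSL2, the gene with the second lowest GC content. It was 0.473 for FOS, 0.412 for EGR1, 0.321 for JUN and -0.111 for FOSB. These are descriptions over 10 libraries, in which control replicate 2 and HG_1 have the highest slopes. Among 13529 other rows with a mean of at least 1 CPM, those most like EGR1 in the same sense were COL27A1 (r = 0.903), ZFP36 (0.901) and ITM2B (0.897). The rows most like JUN were MSTRG.12808.9 (r = 0.953), INTS12 (0.952) and SH2D5 (0.950), and those most like FOS were TMEM230 (0.926), IL17RB (0.919) and MSTRG.23832.5 (0.915). Names with MSTRG are loci without a gene symbol. For EGR1, ZFP36 is also in the lists of other immediate early genes and of mRNA decay factors.

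Of 9 bZIP partners of FOS and JUN that were tested, 2 were higher and 0 lower by edgeR, against 7.62% and 7.80% of all rows, with a median log2 ratio of -0.01. Without control replicate 2 and HG_1 these were 5 higher and 1 lower (13.3% and 13.8% of all rows in that fit), and after correction for GC and length 2 and 0 (14.5% and 14.8%). At an unadjusted p under 0.05, edgeR gave 3 higher genes and 1 lower, MAFK (-0.16, edgeR adjusted p = 0.0537). DESeq2 called 2 higher and 1 lower, and 3086 of 18514 rows in either direction. These 18514 are all rows with at least 1 count in total, including any that DESeq2 left without an adjusted p. Shares of all rows at an unadjusted p are not given for any list. ATF3, a stress-induced partner, rose from 10.3 ± 1.12 to 16.5 ± 0.915 CPM (log2 ratio 0.68, edgeR adjusted p = 0.000558). MAFF, a small MAF protein, rose from 6.49 ± 0.969 to 9.88 ± 1.14 CPM (log2 ratio 0.61, edgeR adjusted p = 0.00692). Every high glucose library was above every control library for both.

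Other immediate early genes moved in both directions, with 4 higher and 5 lower of 26 tested (7.62% and 7.80% of all rows) and a median of 0.02. There were 6 higher and 8 lower without control replicate 2 and HG_1 (13.3% and 13.8% of all rows), and likewise after correction for GC and length (14.5% and 14.8%). Of these 26, ATF3 also counts among the bZIP partners. CCN2, a matricellular growth factor gene, fell from 385.7 ± 69.5 to 157.4 ± 10.2 CPM (log2 ratio -1.29, edgeR adjusted p = 6.97e-05). SGK1, a kinase gene induced by serum, fell by 0.67 on the log2 scale (edgeR adjusted p = 0.00171), while KLF2, a zinc finger factor gene, rose by 0.73 (adjusted p = 0.00393). The groups did not overlap for CCN2, SGK1 or KLF2.

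Of 24 genes that encode the MAP kinase, SRF and CREB inputs to immediate early promoters, 0 were higher and 3 lower by edgeR (7.62% and 7.80% of all rows), with a median of -0.10 (0.0013 over all rows). At an unadjusted p under 0.05 edgeR gave 0 higher and 5 lower. DESeq2 called 0 higher and 3 lower, and 3086 of 18514 rows in either direction. The lower genes numbered 6 of 24 without control replicate 2 and HG_1, with 0 higher, where 13.8% of all rows were lower and 13.3% higher. After correction for GC and length they numbered 6 of 24 with 2 higher, where 14.8% of all rows were lower and 14.5% higher. SRF, which binds the CArG box, was at 99.6, 87.5, 81.8, 82.1 and 93.1 CPM in control replicates 1 to 5 and at 67.1, 62.5, 61.8, 61.1 and 67.5 CPM in HG_1 to HG_5. The groups did not overlap, and SRF fell by 0.47 on the log2 scale (SE 0.0635, edgeR adjusted p = 0.000826). MRTFA, its actin-regulated coactivator, fell by 0.35 (edgeR adjusted p = 0.0194), and did not pass without HG_3, HG_4 or HG_5 (edgeR adjusted p of 0.0540, 0.0508 and 0.0512 in that order, and 0.00109 at the lowest over 23 alternatives). MAP2K1, the kinase MEK1, fell by 0.22 (edgeR adjusted p = 0.0167).

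Genes with AP-1 sites in their control regions were split, with 4 higher and 3 lower of 15 tested (7.62% and 7.80% of all rows) and a median of -0.03. Counts were 5 higher and 4 lower without control replicate 2 and HG_1 (13.3% and 13.8% of all rows), and 5 higher and 6 lower after correction for GC and length (14.5% and 14.8%). MMP1 and MMP3, secreted proteases, rose from 0.497 ± 0.138 to 2.33 ± 0.499 CPM and from 1.32 ± 0.282 to 4.52 ± 0.688 CPM (log2 ratios 2.22 and 1.77, edgeR adjusted p = 0.000265 and 0.000182). VEGFA, the angiogenic factor of the pigment epithelium, rose by 0.87 (edgeR adjusted p = 6.97e-05), and HBEGF, a growth factor gene, fell by 0.85 (adjusted p = 0.000139). Among 7 tested corepressors and target genes of EGR1, 1 was higher and 2 were lower (7.62% and 7.80% of all rows), with a median of -0.12. Without control replicate 2 and HG_1 there were 1 higher and 4 lower (13.3% and 13.8% of all rows), and after correction for GC and length 1 and 2 (14.5% and 14.8%). Leaving out control replicate 1, control replicate 4 or HG_3 left 1 lower. In these fits 1674 of 15075, 1776 of 15087 and 1648 of 15058 rows were called in either direction. Leaving out control replicate 5 left 0 higher, where 1733 of 15060 rows were called. PDGFB fell from 2.80 ± 0.443 to 1.39 ± 0.261 CPM (log2 ratio -1.01, edgeR adjusted p = 0.00377), without overlap of the groups. F3, the tissue factor gene, fell by 0.41 (edgeR adjusted p = 0.0200), and did not pass without control replicate 1, control replicate 4 or HG_3 (edgeR adjusted p of 0.0515, 0.0511 and 0.0547), nor with limma on log2(FPKM + 1) or log2(FPKM + 0.1) (limma adjusted p of 0.0531 and 0.0511). The lowest adjusted p of F3 over 23 alternatives was 0.000889. NAB2, a corepressor that binds EGR1, rose by 0.32 (edgeR adjusted p = 0.0194), and did not pass without control replicate 5 (edgeR adjusted p = 0.0537, the highest of 23 alternatives, the lowest being 0.00221). Of 11 factors that bind AU-rich elements or degrade mRNA, 0 were higher and 1 lower (7.62% and 7.80% of all rows), with a median of -0.01. The lower gene was HNRNPD (log2 ratio -0.18, edgeR adjusted p = 0.0125). At an unadjusted p under 0.05 edgeR gave 0 higher and 1 lower of these 11. DESeq2 called 0 higher and 1 lower, and 3086 of 18514 rows in either direction. After correction for GC and length 1 was higher (14.5% of all rows) and 1 lower (14.8%). Without control replicate 2 and HG_1, 0 were higher (13.3% of all rows) and 1 lower (13.8%).

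**Figure D5:**
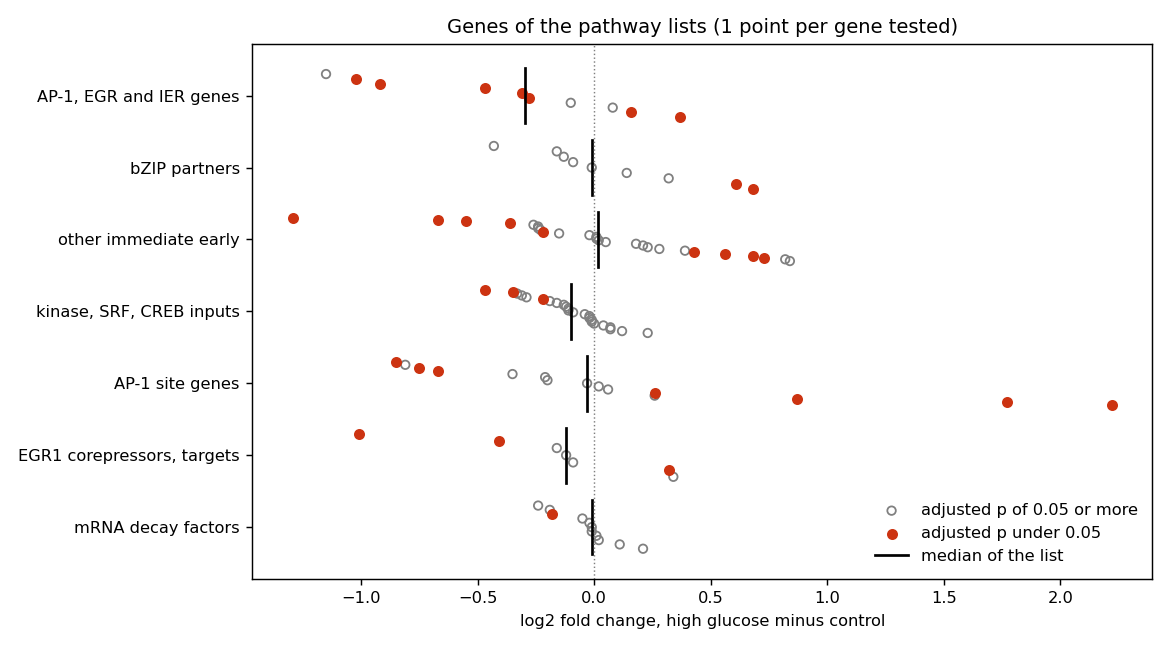
Log2 fold change of high glucose minus control (horizontal axis) of every gene tested in each list, 1 point per gene, filled where the adjusted p was under 0.05, with the list's median as a line. The AP-1, EGR and IER genes had a median of -0.30, and the other 6 lists plotted between -0.12 and 0.02; marker lists are not plotted.

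The cell line label was checked with markers. Of 10 pigment epithelium markers, 7 were tested, and KRT8 was the most abundant in every library. Over all libraries OTX2 ran from 87 to 102.3 CPM, MITF from 43.9 to 64.9 CPM and RLBP1 from 7.45 to 12.8 CPM. RPE65 had 0 counts in 9 of 10 libraries, TTR 0 in all 10, and TYR at most 34. The summed FPKM of this list was 1542.6 to 1920.3 in controls and 986.6 to 1294 under high glucose. KRT8 and KRT18 made up most of it, with means of 954.1 and 689.8 FPKM in controls and 611.3 and 431.8 FPKM under high glucose. With all 10 libraries OTX2, MITF and RLBP1 did not pass (log2 ratios -0.12, -0.20 and -0.32, with edgeR adjusted p of 0.0814, 0.102 and 0.133). PMEL, KRT8 and KRT18 were lower (log2 ratios -0.72, -0.62 and -0.68, with edgeR adjusted p of 0.00854, 0.00159 and 0.00142), and the median of the 7 was -0.62. These 3 of 7 compare with 7.80% of all rows lower. At an unadjusted p under 0.05 all 7 were lower, DESeq2 called 5 lower, and 0 were higher by either. DESeq2 called 3086 of 18514 rows in either direction, and the share of all rows at an unadjusted p is not given. All 7 were called lower without control replicate 2 and HG_1 (13.8% of all rows), and also after correction for GC and length (14.8%). BEST1, which overlaps FTH1 (6194.9 ± 835.2 FPKM in controls) on the other strand, had 8707 and 18223 counts in control replicates 1 and 4 and at most 300 in the other 8 libraries. BEST1 is 1 of the 7 markers tested, and its lower mean under high glucose rests on these 2 control libraries. Control replicates 2, 3 and 5 had 0.942, 0.577 and 5.26 CPM, against 0.981 to 7.79 CPM under high glucose. Of 15 markers of fibroblasts, immune, endothelial and photoreceptor cells, 5 were tested, with a median of -0.39. THY1, LUM, CDH5 and CRX had 0 counts in all libraries, and PTPRC at most 4. DCN, CD14 and PECAM1 had at most 3, 8 and 4 counts. NRL had 17 to 43 counts, PDGFRA 3 to 17 and VWF 0 to 24. Of the 5, CD68, a lysosomal protein gene also made outside immune cells, was higher (0.70), and PDGFRB and COL1A1 were lower (-0.78 and -1.33), with edgeR adjusted p of 0.00311, 0.000123 and 2.86e-05, against 7.62% of all rows higher and 7.80% lower. Counts were again 1 higher and 2 lower without control replicate 2 and HG_1 (13.3% and 13.8% of all rows) and after correction for GC and length (14.5% and 14.8%). The summed FPKM of these 15 was 73.2 to 79.6 in controls and 74.9 to 96.5 under high glucose, with CD68 the most abundant in all libraries but control replicate 1, where PDGFRB was. The part of these differences in the values of the immediate early genes was not tested.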

How the data were processed

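RNA of ARPE-19 cells was sequenced in 5 control and 5 high glucose libraries. The authors deposited whole-number read counts per gene, without normalization, and FPKM values, which the authors scaled by transcript length and library size. The submitters' processing notes name fastp 0.20.1, HISAT2 2.2.1 and GRCh38. The counting program, annotation and strand setting are not given in the sources used here. In R 4.3.3, counts were compared with edgeR 4.0.16 (filterByExpr, TMM, quasi-likelihood test, Benjamini-Hochberg adjustment over 14936 rows; log2 CPM with a prior count of 2), with steps tested on simulated data. The 20 pairs of libraries within groups differed beyond sampling noise (chi-square per gene between 13.8 and 78.5). A count of 3, the limit that 0 counts allow, equals 0.0654 to 0.0925 CPM, for counting error only. Across libraries, the ratio of count to FPKM had an SD of at most 2.49% for 9 of the 10 genes and 29.1% for FOS. Members and lists were chosen with earlier results of these data known. Named were all 10 genes, from each other list up to 4 genes with the largest change among those passing, TXNIP and ARRDC4, and the 3 rows most like FOS, JUN and EGR1 by Pearson's r of log2 CPM after subtraction of group means. MAFK, the marker genes and the overlapping genes ERCC1, HOOK2 and FTH1 were named for what they are or after their values were seen. Alternatives were RLE factors, library size alone, 2 other count filters, DESeq2 1.42.0, the likelihood ratio test, limma 3.58.1 with log2(FPKM + 0.1) for all rows and with log2(FPKM + 1) for all rows or for those with a mean FPKM of at least 1, 1 surrogate variable from sva 3.50.0, a lowess correction (span 0.3) for GC content and length on 13538 rows with GENCODE release 29 values, libraries left out, and MSTRG loci left out. A marker gene of the lists is not reported here.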

Additional observations from a re-analysis of the deposited data

Results flagged for a closer look

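Among 58 groups of 5 values, 5 had a single library lying far outside the rest. The groups were each immediate early gene, each gene named by rule from the lists, TXNIP, ARRDC4 and the total count, per condition. MAFK and the marker genes were not included. Chance alone flags about 1 in 20 groups, or 2.9 of 58. FOSB had 0.582 CPM in HG_2, where the remaining HG libraries ran from 0.935 to 1.00, and JUN had 190.6 CPM in control replicate 1, where the remaining controls ran from 210.5 to 214.0. For CCN2, control replicate 1 had 504.7 CPM and the remaining controls 336.9 to 384.7. In HG_1, MRTFA had 50.9 CPM (38.2 to 41.4 in HG_2 to HG_5) and NAB2 27.5 CPM (22.4 to 23.8). Without control replicate 1 the log2 fold change of JUN was 0.13 and that of CCN2 -1.18.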

How the results depend on the processing

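No paired analysis was made. Control libraries carry numbers and high glucose libraries letters in the labels, and the digits of the high glucose columns match no single label. None of the 10 immediate early genes, nor of the genes named by rule from the lists, reversed direction in those of 23 alternatives that tested it. EGR1, FOSB and IER3 passed an adjusted p of 0.05 in all alternatives that tested them (22, 22 and 23). Over the 10 fits that drop a single library, called genes and loci ranged from 1648 (of 15058, without HG_3) to 2993 (of 15077, without HG_1), against 2303 with all libraries. Those that also had a fold change above 1.5 ranged from 461 to 618. The immediate early genes called higher ranged from 0 to 2, those called lower from 4 to 5, and those without overlap from 5 to 6. In each fit 2 of them passed both limits. Shares of all rows by direction or overlap are not given for these fits. Called genes and loci rose to 4923 with 1 surrogate variable, 3968 with the GC and length correction and 4035 without control replicate 2 and HG_1; the cause was not tested. With limma on log2(FPKM + 1), 251 genes and loci and 0 of the 10 genes passed both limits, since adding 1 shrinks the change of low genes by construction. On rows with a mean FPKM of at least 1 these were 247 and 0. There 3 of the 10 genes were lower and 3 without overlap, because EGR1 and FOSB were not tested. FOS, which did not pass and overlapped with all libraries, was not tested there either. In that fit 1896 of 11957 rows had an adjusted p under 0.05, and shares by direction or overlap are not given. FOSL1 passed only with 1 surrogate variable (adjusted p = 0.0436 from edgeR). With 1 surrogate variable, where 16.5% of all rows were higher and 16.5% lower, higher and lower genes numbered 3 and 1 of 9 bZIP partners, 6 and 8 of 26 other immediate early genes, 2 and 6 of 24 inputs, 5 and 5 of 15 with AP-1 sites, 1 and 3 of 7 EGR1 corepressors and targets, and 1 and 1 of 11 decay factors. Of the 10 genes FOS had the fewest counts, 2 to 28 per library.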
